A study of Rattus norvegicus with 6 samples.

Results

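Genes of the podocyte were followed in the renal cortex of rats: Nphs1, Podxl, Synpo, Wt1, Ptpro, Plce1, Magi2 and Cdkn1c. They were chosen by name, as genes of podocyte structure, signalling and nuclear control. Every non-control probe whose accession maps to one of these symbols was taken. This gave 18 of 61526 probes used, and all 8 genes were among 30709 features tested. Total RNA came from 6 male Sprague-Dawley rats, bought at 5 weeks of age. Dosing lasted 4 weeks: 3 animals, the vehicle group, received corn oil, and 3, the treated group, received 1000 mg/kg/day of o-anthranilic acid (ortho-aminobenzoic acid). Each animal had 1 single-colour (Cy3) Agilent array. The labels name a cortex sample and no sorted cells, so podocytes are a minor cell type in it.

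Podocytes are the epithelial cells that wrap the capillaries of the glomerulus with interlocking foot processes. Neighbouring foot processes are joined by the slit diaphragm, a cell junction through which the primary urine is filtered. Podocytes divide rarely, so a drop of podocyte transcripts in cortex RNA is often read as loss or dedifferentiation of these cells. In RNA of whole cortex, fewer podocytes and less RNA per podocyte cannot be told apart, and neither can a piece of cortex with fewer glomeruli.

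The transcripts of all 8 genes were measured in both groups, and none changed past the threshold with o-anthranilic acid. limma with Benjamini-Hochberg adjustment called 0 of the 8, where it called 0 of all features (0%). The log2 fold changes, treated minus vehicle, lay between -0.69 for Magi2 and -0.09 for Nphs1, with a median of -0.20. All 8 were below 0, as were 51.9% of all features, whose median was -0.01. The 8 genes were read in the same animals, so their shared direction is not 8 separate pieces of evidence. Among the 8, only Magi2 had an unadjusted p under 0.05, where 4.84% of all features had one with lower values in treated animals. Magi2 was also the only one whose treated values all lay below the vehicle values, as did those of 8.31% of all features. The Magi2 probe was dim, and its log2 fold change was -0.12 when computed from normexp-corrected median signals. The offset added in that setting shrinks the log ratio of so dim a probe.

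Genes of the tubules were also measured, though their presence does not tell cortex from other parts of the kidney. Lrp2 (megalin), the endocytic receptor of the proximal tubule, and Umod (uromodulin) of the thick ascending limb were well above background on 6 arrays. Across arrays, 63.7% to 69.3% of probes were well above background. The median local background was 72.5 intensity units on the array of treated replicate 2, which lay alone on its slide, and 32 to 39 on the other 5. No spot was saturated. A unit of normalised signal is used below: log2 of the processed signal minus the array's own 75th percentile. It allows a gene to be compared between arrays but not with another gene.

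Nphs1 and Podxl are textbook targets of the transcription factor WT1 in podocytes, so their promoters are shown beside the values of Wt1. They run from 250 bases before to 50 bases after the gene's start, from RefSeq, build GRCr8, at chr1:94848011-94848310 (plus strand) for Nphs1 and chr4:61149082-61149381 (minus strand) for Podxl. Capitals mark matches on either strand to GNGGGNG, a short core shared by many sites of WT1 and of the related EGR factors, and matches that overlap run together.
Nphs1: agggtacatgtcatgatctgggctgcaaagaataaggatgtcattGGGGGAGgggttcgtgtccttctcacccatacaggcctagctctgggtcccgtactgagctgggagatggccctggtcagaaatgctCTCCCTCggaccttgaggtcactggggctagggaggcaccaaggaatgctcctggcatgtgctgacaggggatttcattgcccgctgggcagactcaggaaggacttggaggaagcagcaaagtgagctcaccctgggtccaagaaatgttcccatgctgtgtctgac
Podxl: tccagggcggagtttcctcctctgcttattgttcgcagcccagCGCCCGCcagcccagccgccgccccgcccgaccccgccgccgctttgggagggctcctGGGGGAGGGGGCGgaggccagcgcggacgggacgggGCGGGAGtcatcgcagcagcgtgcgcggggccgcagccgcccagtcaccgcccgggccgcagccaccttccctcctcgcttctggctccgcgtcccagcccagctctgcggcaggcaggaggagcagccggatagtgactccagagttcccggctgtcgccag
The Nphs1 window held 2 matches and the Podxl window 5. Of the 6 podocyte genes in the promoter table (all but Plce1 and Cdkn1c), 5 had a match, and 62.3% of all 27457 promoters of this length had one. The window of Wt1 itself held 0. The motif CANNTG, the E-box bound by factors such as TCF21, was present in 2 of the 6 and in 71.6% of all. GC content was 56.3% for the Nphs1 window and 74.7% for the Podxl window, which bears on how often a G-rich motif occurs.

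Nphs1 (NM_022628) encodes nephrin, the adhesion protein whose extracellular domains span the slit diaphragm. Its normalised log2 signal was 1.07, 1.00 and 1.25 in vehicle replicates 1 to 3, and 1.00, 1.02 and 1.04 in the treated ones. The treated arrays lay within 0.04 of each other, at the level of the lower vehicle arrays, and vehicle replicate 3 stood above the rest. The log2 fold change was -0.09 ± 0.09 (SE, n = 3 per group), with a 95% interval from -0.31 to 0.13. The lower bound corresponds to a mean 1.24-fold lower in treated animals. The difference shrank to -0.017 without vehicle replicate 3 and was -0.14 without vehicle replicate 2. A second Nphs1 probe had values of -0.38, -0.35 and -0.06 in vehicle and -0.56, -0.55 and -0.44 in treated animals. On that probe the groups did not overlap, and its log2 fold change was -0.25 ± 0.11, so the probes gave the same direction and different sizes.

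Magi2 (NM_053621) encodes a scaffold protein with many interaction domains that binds nephrin on the inner face of the slit diaphragm. Its normalised log2 signal was -4.61, -4.66 and -4.42 in vehicle replicates 1 to 3. In treated replicates 1 to 3 it was -5.02, -5.50 and -5.26, all below the lowest vehicle value. The log2 fold change was -0.69 ± 0.14 (SE, n = 3 per group), or a mean 1.62-fold lower, with a 95% interval from -1.04 to -0.35. The unadjusted p was 0.00250 and the limma adjusted p over all features was 0.454, so Magi2 did not pass.

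The Magi2 spot was dim, though marked well above background on 6 arrays, and its difference was smaller when computed from the median signals. In intensity units, the processed signal was 37.7, 39.6 and 40.5 in vehicle replicates and 28.7, 21.6 and 25.4 in treated ones. Before background subtraction the median spot brightness was 73, 78 and 73.5 in vehicle replicates and 76.5, 61 and 67 in treated ones, so those values overlapped. The local background beside the spot was 41, 39 and 45 on the vehicle arrays. On the treated arrays it was 35, 78 and 35, the 78 being treated replicate 2, where it exceeded the spot itself. After normexp correction of these median values, with an offset of 50, the log2 fold change was -0.12. That alternative changes the signal, the background method and the offset together, and an offset above the probe's own signal shrinks any log ratio. With the processed signal, the log2 fold change without treated replicate 2 was -0.57. The design had 1 Magi2 probe, so no second probe was available for comparison.

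Podxl (NM_138848) encodes podocalyxin, the sialic acid-rich surface protein whose negative charge keeps foot processes apart. It is also made by endothelial cells. Its normalised log2 signal was 4.37, 4.20 and 4.29 in vehicle animals and 3.87, 3.93 and 4.42 in treated animals. Treated replicate 3 held the highest value of all, and the other treated arrays held the lowest. The log2 fold change of -0.21 ± 0.16 (SE, n = 3 per group; 95% interval -0.60 to 0.17) was -0.38 without treated replicate 3. It was -0.11 with treated replicate 1 left out and -0.14 with treated replicate 2 left out.

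Ptpro (NM_017336) encodes the receptor tyrosine phosphatase GLEPP1 of the apical podocyte membrane. Its main probe stood at 2.67, 2.60 and 3.00 in vehicle animals and 2.67, 2.64 and 2.64 in treated animals. As with nephrin, the treated values were close together and vehicle replicate 3 alone was high. The log2 fold change was -0.10 ± 0.12 (SE), with a 95% interval from -0.39 to 0.18, and without vehicle replicate 3 it was 0.016. Leaving out vehicle replicate 2 gave -0.18. The other Ptpro probes both had a log2 fold change of -0.14.

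Synpo (NM_021695) encodes synaptopodin, an actin-associated protein of the foot process. It read -2.82, -2.77 and -2.58 in vehicle replicates and -2.96, -2.78 and -2.71 in treated ones. The groups overlapped, with a log2 fold change of -0.09 ± 0.11 (SE; 95% interval -0.35 to 0.17). For Synpo it was -0.018 without treated replicate 1, -0.022 without vehicle replicate 3 and -0.15 without treated replicate 3. Plce1 (NM_053758) encodes phospholipase C epsilon, a signalling enzyme whose loss in people causes an inherited nephrotic syndrome. It read -0.51, -0.98 and -0.59 in vehicle replicates and -0.85, -1.10 and -0.70 in treated ones. For Plce1 replicate 2 was the lowest in each group, and the log2 fold change was -0.19 ± 0.16 (SE; 95% interval -0.58 to 0.21). Without vehicle replicate 2 the log2 fold change of Plce1 was -0.33, whereas it was -0.08 without treated replicate 2 and -0.10 without vehicle replicate 1.

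Wt1 (NM_031534) encodes the zinc finger factor that maintains the podocyte programme. Its brightest probe stood at -0.23, 0.01 and 0.26 in vehicle animals and -0.34, -0.23 and -0.06 in treated animals. Vehicle replicate 1 lay among the treated values. Wt1 had a log2 fold change of -0.22 ± 0.15 (SE, n = 3 per group; 95% interval -0.58 to 0.13). The difference was -0.35 without vehicle replicate 1 and -0.10 without vehicle replicate 3.

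The remaining Wt1 probes were dim, with log2 fold changes of -0.32, -0.36 and -0.13. Of these, only the probe at -0.36 ± 0.09 had no overlap between groups, with -3.56, -3.63 and -3.43 in vehicle and -3.85, -3.86 and -4.00 in treated animals. After normexp correction that probe stood at -0.19.

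Cdkn1c encodes p57, a cyclin-dependent kinase inhibitor that marks podocytes that have left the cell cycle. Its main probe (NM_001033757) stood at 2.92, 2.57 and 3.31 in vehicle animals and 2.48, 3.05 and 2.60 in treated animals. It had the widest spread of the 8 genes within the vehicle group, with an SD of 0.37 (n = 3). The log2 fold change was -0.22 ± 0.23 (SE; 95% interval -0.78 to 0.34), and leaving out 1 array moved it between -0.40 (vehicle replicate 2) and -0.03 (vehicle replicate 3). It was -0.39 without treated replicate 2 and -0.11 without treated replicate 1. The 5 Cdkn1c probes, for 2 RefSeq transcripts, had log2 fold changes from -0.29 to -0.19.

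**Figure D1:**
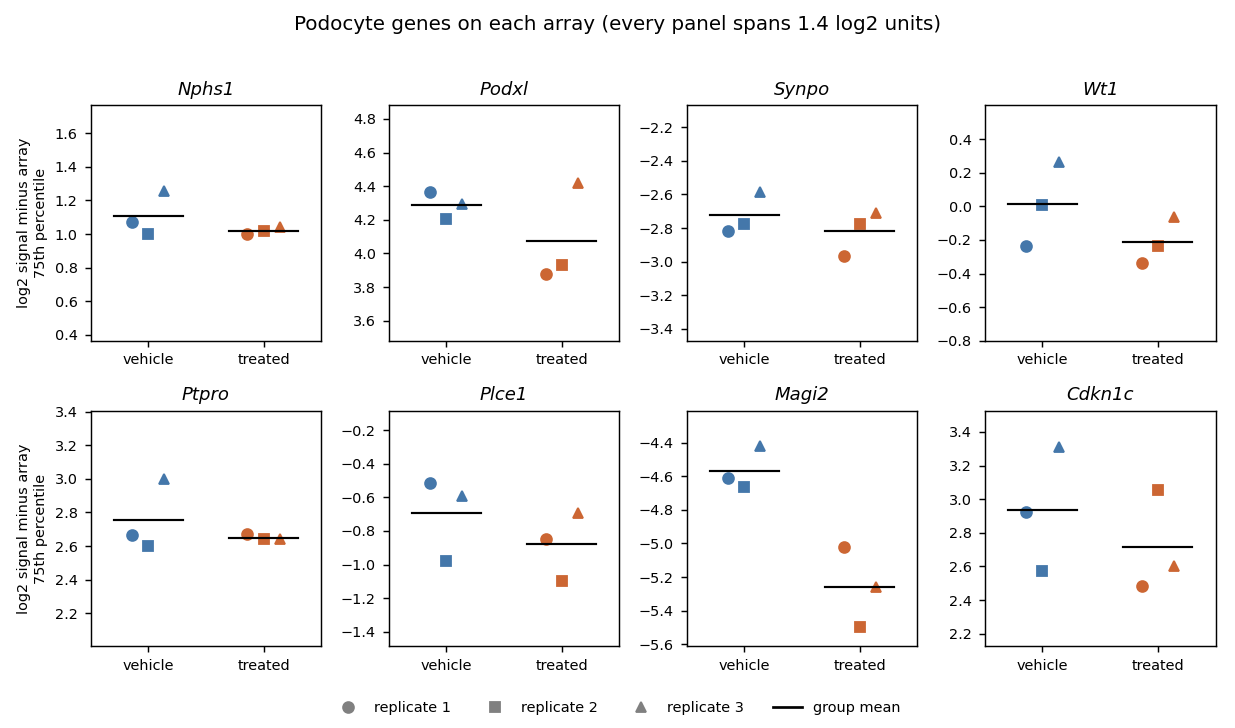
Normalised log2 signal (log2 processed signal minus the array's 75th percentile) of the 8 podocyte genes on each array, with vehicle in blue and treated in orange, marker shape giving the replicate and the black line the group mean of 3. Only Magi2 has no overlap between groups, and vehicle replicate 3 (triangle) is the highest array for 6 of the 8 genes.

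Over all 18 probes of the 8 genes the log2 fold change was below 0, from -0.69 to -0.09, where 53.1% of all kept probes were below 0. Probes of 1 gene share its transcript and the same animals, so they are not separate evidence. The treated values lay entirely below the vehicle values for 3 probes, the ones described for Nphs1, Wt1 and Magi2. Over all kept probes this share was 8.78%. Without vehicle replicate 3, 15 of the 18 probes were below 0.

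**Figure D2:**
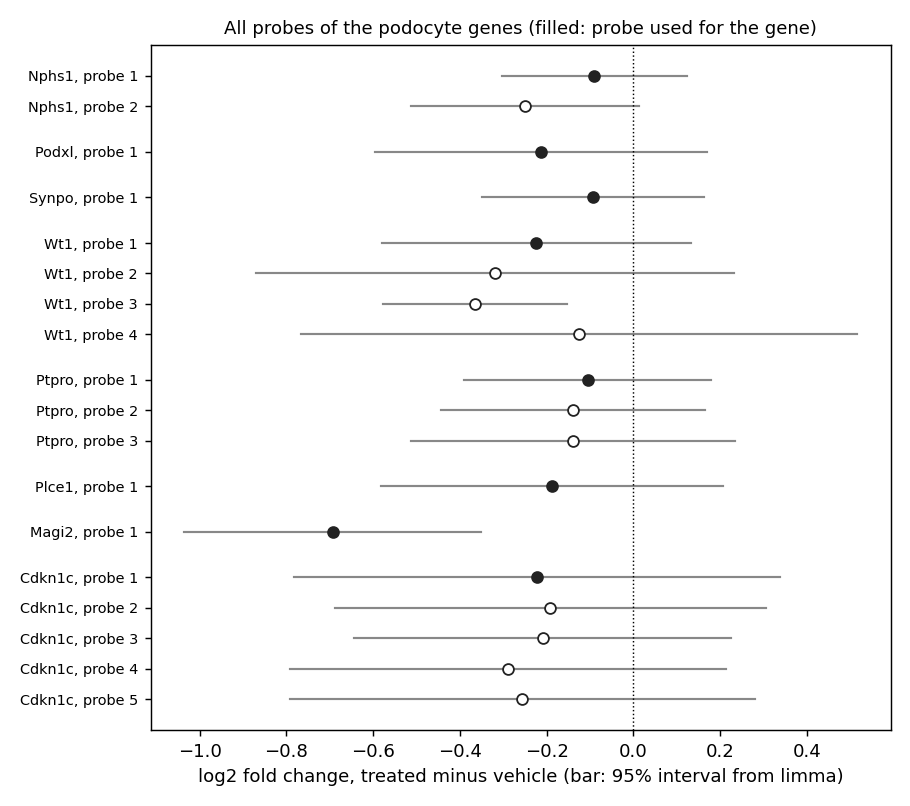
Log2 fold change (treated minus vehicle) of every probe of the 8 podocyte genes, with its 95% interval from limma; filled points mark the probe used for the gene. All 18 points lie below 0, and the intervals of Magi2 and of 1 dim Wt1 probe leave out 0.

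Single animals were high or low for most of the 8 genes. Vehicle replicate 3 was the highest of the 6 arrays for 6 of the 8 genes, and for 23.5% of all features. It was also the highest for 6 of the 12 proximal tubule genes described below, so a high rank there was not confined to podocyte genes. On that array those 12 genes lay on average only 0.04 above their vehicle means. Treated replicate 1 was the lowest for 5 of the 8, for 3 of the 12 proximal tubule genes and for 16.2% of all features. Relative to each gene's vehicle mean, the mean log2 shift of the 8 genes was -0.03, -0.14 and 0.18 for vehicle replicates 1 to 3. It was -0.28, -0.26 and -0.14 for treated replicates 1 to 3, so treated replicate 3 stood level with vehicle replicate 2. Without Magi2, left out here after its values were seen, the treated animals stood at -0.26, -0.16 and -0.06 and the lowest vehicle animal at -0.15, between them.

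The median log2 fold change of the 8 genes rested in part on single arrays. From -0.20 over all arrays, it moved to -0.07 when vehicle replicate 3 was left out, to -0.11 when treated replicate 1 was, and to -0.13 when treated replicate 2 was. With normexp-corrected median signals it was -0.12. Ptpro was the 1 gene above 0 without vehicle replicate 3, and all 8 stayed below 0 when any other array was left out and under each other scaling tried.

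A wider list of podocyte genes was set beside the 8, of which 44 of 59 were measured. Several of them are also made by other kidney cells. Of the 44, 33 had a log2 fold change below 0, the median was -0.08, and limma called 0. At an unadjusted p under 0.05 there were 5 lower and 1 higher, where the shares over all features were 4.84% and 3.46%. The treated values lay entirely below the vehicle values for 9 of the 44, beside 8.31% of all features, and entirely above for 0, beside 6.39%. Among lists described below, they lay entirely below for 2 of 8 collecting duct, 2 of 10 parietal epithelium and 1 of 5 thick ascending limb genes. The count was 0 of 12 for proximal tubule, 0 of 13 for glomerular endothelium and 0 of 11 for mesangium. Log2 fold changes were below 0 for 6 of 8 collecting duct, 5 of 6 macrophage and 6 of 12 proximal tubule genes. Of the 30 genes of this list with several probes, 8 had probes of both signs. Without vehicle replicate 3 the median was -0.02 and 25 of the 44 were below 0. The array of vehicle replicate 3 was the highest for 23 of the 44 genes.

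Other slit diaphragm genes had a median near 0. Cd2ap, an adaptor that links the slit diaphragm to actin, and Kirrel1, the nephrin-like protein NEPH1, both had a log2 fold change of -0.02. Trpc6, a calcium channel at the slit diaphragm, stood at -0.24 ± 0.10 with no overlap between groups, and its second probe stood at 0.19. The 11 genes of this role had a median of -0.02.

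Genes of the foot process cytoskeleton had a median of -0.06 over 9 genes. Actn4, the actin crosslinker alpha-actinin 4, and Nes, the intermediate filament protein nestin, stood at -0.06 and -0.09. Arhgap24, a GTPase-activating protein of Rac, stood at -0.18 ± 0.07 with an unadjusted p of 0.0473. The 3 transcription factors measured were all below 0, with a median of -0.06. Among them, Tcf21 stood at -0.06 ± 0.14 and Foxc2, the nearest to 0, at -0.01 ± 0.16. Lmx1b and Col4a3 had no probe named through the table used.

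The group of surface, adhesion and basement membrane genes had the lowest median of the roles, -0.20 over 12 genes. Pdpn (NM_019358), podoplanin, a mucin-like membrane protein of podocytes and of lymphatic vessels, stood at 2.36, 2.08 and 2.37 in vehicle animals and 1.69, 1.87 and 1.63 in treated animals. Its groups did not overlap, with a log2 fold change of -0.54 ± 0.12 (SE, n = 3 per group), a mean 1.45-fold lower and an unadjusted p of 0.00329. The 3 Pdpn probes, read in the same animals, had log2 fold changes from -0.59 to -0.50. Col4a4, a chain of the mature glomerular basement membrane collagen, stood at -0.40 ± 0.11 and also had no overlap, and its second probe stood at -0.24. Itgb5, an integrin subunit, stood at -0.23 ± 0.09. Pla2r1, the phospholipase A2 receptor, stood at 0.31 ± 0.24 with overlapping groups. Its probe was dim and well above background on only 4 of the 6 arrays.

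Of the secreted and signalling genes, Htra1, a secreted protease, stood at -0.32 ± 0.10, and Vegfa, the growth factor by which podocytes maintain the glomerular endothelium, at -0.02 ± 0.08. Cryab, a small heat shock protein that tubular cells also make, was the 1 gene of the wider list with an unadjusted p under 0.05 that was higher in treated animals. It read 4.11, 3.42 and 3.84 in vehicle and 5.04, 5.05 and 4.03 in treated animals, with overlapping groups. None of these genes passed after adjustment over all features.

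**Figure D3:**
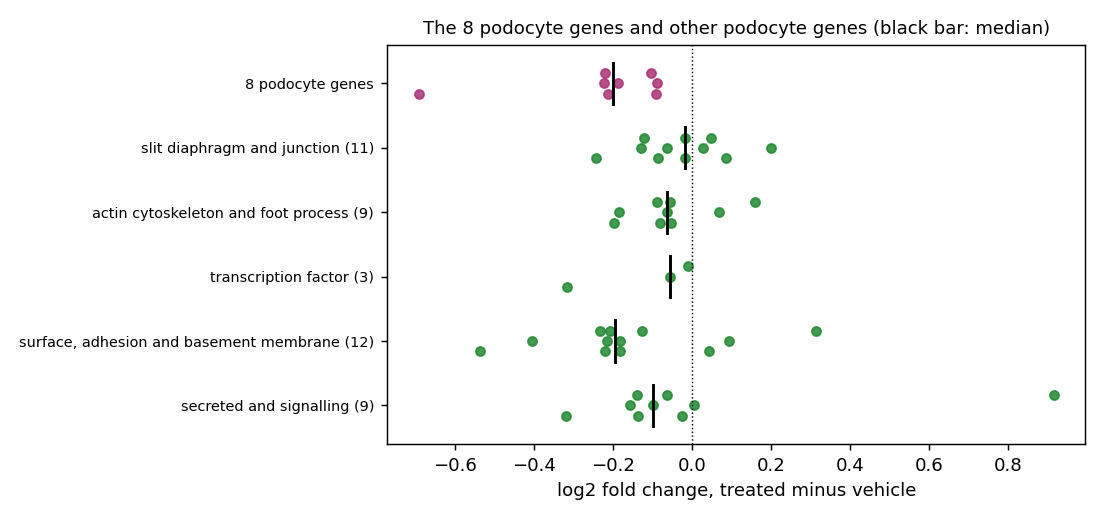
Log2 fold change (treated minus vehicle) of the 8 podocyte genes and of 44 other podocyte genes by role, 1 point per gene, with a black bar at the median. The 8 genes have a median of -0.20, the slit diaphragm genes -0.02 and the surface and basement membrane genes -0.20.

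Lists for the other cells of the glomerulus had medians between -0.06 and 0.07 over all arrays. The list of glomerular endothelium had 8 of 13 genes below 0 and a median of -0.06, which ranged from -0.15 to 0.04 over the other settings. Ehd3, a marker of glomerular capillary endothelium, stood at -0.32 ± 0.15 and Kdr, the receptor of Vegfa, at 0.04 ± 0.08. Sost, whose probe was dim, stood at 0.32 ± 0.13. The mesangial list, for the contractile cells between the capillaries, had 6 of 11 below 0 and a median of -0.01 (-0.09 without treated replicate 3, 0.08 without treated replicate 2). Pdgfrb, its growth factor receptor, stood at 0.25 ± 0.10 with treated values all above the vehicle values, as for 6.39% of all features, and Itga8 stood at -0.05 ± 0.16. The juxtaglomerular and arteriolar list had a median of 0.07 over 5 genes, with Rgs5 at 0.17 and Myh11 at -0.21. That median was -0.08 without treated replicate 3 and 0.26 without treated replicate 2. The parietal epithelium list, for the cells lining Bowman's capsule, had a median of 0.05 over 10 genes, from Krt8 at -0.33 to Cldn3 at 0.57.

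The animals ranked differently by these lists than by the podocyte genes. In the glomerular endothelium list the mean shift was -0.07, 0.00 and 0.07 for vehicle and -0.06, -0.16 and 0.11 for treated replicates. The mesangial list stood at -0.13, 0.04 and 0.08 in vehicle and -0.02, -0.14 and 0.16 in treated animals. Both were highest on treated replicate 3 and lowest on treated replicate 2, whereas the 8 podocyte genes were highest on vehicle replicate 3 and lowest on treated replicate 1. Whether the glomerular share of the cortex pieces differed was not tested.

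Genes of the tubules were read in the same way. Proximal tubule genes had a median of 0.00 over 12 genes and mean shifts between -0.05 and 0.04 on the 6 arrays, with Lrp2 at 0.02 ± 0.09, Slc7a7 lowest at -0.26 and Slc22a6 highest at 0.11. The thick ascending limb list had a median of 0.00 (-0.22 to 0.10 over the other settings), with Umod at 0.00 ± 0.22, Egf at -0.19 and Cldn10 at 0.14. The distal tubule list held 2 measured genes, Calb1 at -0.31 and Slc12a3 at 0.06. The collecting duct list had a median of -0.09 over 8 genes, with Aqp2 at -0.21 ± 0.10, Aqp3 at -0.24 and Slc4a1 at 0.25.

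Immune and stromal markers varied widely within the groups. For the lymphocyte list the shift was -0.66 in treated replicate 1, 0.46 in treated replicate 2 and from -0.05 to 0.11 in the remaining 4 animals. Its members ranged from Lck at -0.29 to Cd2 at 0.31, with a median of -0.01, or -0.25 without treated replicate 2 and 0.27 without treated replicate 1. Several probes of the lymphocyte list were dim. Cd3e, well above background on 4 arrays, read -7.40 in treated replicate 1 and -4.29 in treated replicate 2. Cd2 and Cd79b were well above background on 5 arrays. A filter for probes well above background on all 6 arrays kept 3 genes of this list. The macrophage list had a median of -0.09 over 6 genes, from Aif1 at -0.18 to Ptprc at 0.17. The fibroblast list had a median of 0.19 over 5 genes, from Dcn at -0.02 to Col1a1 at 0.47, and its shifts were -0.20 on vehicle replicate 3 and 0.45 on treated replicate 3. The part of these cell types in the podocyte values was not tested.

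**Figure D4:**
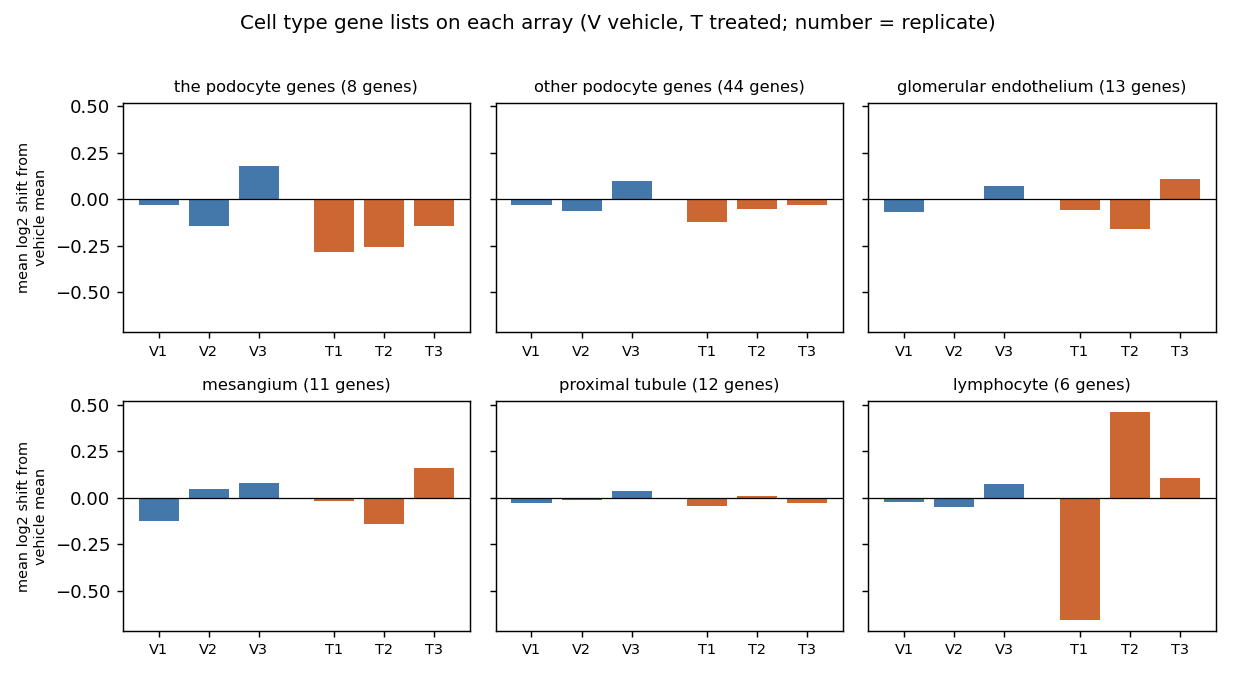
Mean log2 shift of each gene list from its genes' vehicle means, on the 3 vehicle (blue) and 3 treated (orange) arrays. The 8 podocyte genes run from 0.18 on vehicle replicate 3 to -0.28 on treated replicate 1. The proximal tubule genes stay between -0.05 and 0.04. The lymphocyte genes, several of them dim, spread from -0.66 to 0.46 within the treated group.

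The named genes outside the 8 whose values were most like the mean of the 8 over the 6 arrays were Ndrg1, Stx11, Sfxn3, Lonrf3 and Gfer, with a Pearson r from 0.98 to 0.99. This likeness is a description over 6 arrays, which share the same 2 groups, and 180 of 11905 named genes (1.51%) had an r above 0.9. Of the wider podocyte list 4 of 44 were above it, among them Robo2, an axon guidance receptor also found in podocytes, Bcam, a laminin receptor, and Itgb5. Robo2, the highest of them with an r of 0.97, read -1.13, -1.16 and -0.81 in vehicle and -1.28, -1.26 and -1.17 in treated animals. Its groups did not overlap, and its log2 fold change was -0.21 ± 0.11 (SE), while its second probe stood at 0.25. An r under -0.9 was found for 174 named genes (1.46%) and for 2 of the 44. These were Fat1, a large cadherin of the slit diaphragm, at -0.99 and Ezr (ezrin), a linker of membrane and actin, at -0.93. For Ezr the log2 fold change was 0.07, while its second probe stood at -0.10.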

How the data were processed

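The 8 genes and all gene lists were chosen with earlier results of these data known. The submitters' processing notes name Agilent Feature Extraction 10.7. Per the file headers, the deposited scanner files give intensity (linear): a processed signal with background subtracted and trend removed, not scaled between arrays, plus median signals of spot and background. The authors' value table was set against these files and is a ratio, the processed signal over the array's 75th percentile. Its columns matched the scanner files of the same group under other replicate numbers, so replicates are named here by scanner file.

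Of 61657 non-control probes, 84 external RNA control probes and 47 probes flagged as outliers were dropped. Of 61526 used, 27435 got a symbol by RefSeq accession from a GRCr8 table (the array design names build rn4, so no probe coordinates are given). Values are log2 processed signal minus each array's 75th percentile over non-control probes. A probe was kept where 3 or more of the 6 arrays marked it well above background, and each gene took its kept probe with the highest mean. All probes of the 8 genes were kept. Groups were compared over 30709 features with limma 3.58.1 in R 4.3.3 (lmFit, eBayes, Benjamini-Hochberg, threshold 0.05). The code of this fit was run on simulated data with known changes, a check of the code and not of the results here. The labels call samples biological replicates. The number of arrays limits the precision: the median SE of a log2 fold change was 0.11.

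Named genes were the 8 with all probes, a fixed set of podocyte and other cell type genes, podocyte genes with an unadjusted p under 0.05, the highest and lowest of each other list, and the 5 most alike in pattern. Foxc2, Robo2, Bcam and others of the wider list were named after their values were seen. Alternatives covered background correction, scaling, source of values, filter, probe summary, variance model, blocks and each array left out. Except for normexp and the variance model, each changed 1 choice. The variance model gained a trend and a robust fit together. normexp (offset 50) also replaced the processed signal by median signals. Some genes of the lists are not reported here by name.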

Additional observations from a re-analysis of the deposited data

How the results depend on the processing

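None of the 8 podocyte genes was called under any of 18 other settings. Over all features limma called 5 with normexp correction of median signals, 5 with a trended, robust variance model, 1 with a filter of all 6 arrays, 2 with gene values averaged over probes and 3 with the slide as a block, and 0 to 3 with 1 array left out. Blocking on slide equals leaving out treated replicate 2, alone on its slide. The median of the 8 genes ranged from -0.24 without vehicle replicate 2 to -0.07 without vehicle replicate 3, and that of the other podocyte genes from -0.11 to -0.02. Ptpro, at -0.10 over all arrays, ranged from -0.18 (without vehicle replicate 2) to 0.016 (without vehicle replicate 3), and the cause of the turn was not tested. With the replicate number as a block, the median of the 8 genes was -0.20, limma called 0 features and the smallest adjusted p among the 8 was 0.602. Over all features, same-numbered arrays did not deviate together from their group means (correlations 0.02, -0.04 and -0.02). With 3 arrays per group, these values cannot show whether the animals were paired. Counts of the 8 genes, and of their probes, below 0 were alternatives chosen after seeing the data.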
